A study of Mus musculus with 16 samples.

Results

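The sirtuins, the 7 genes *Sirt1* to *Sirt7*, were followed in CD4+ and CD8+ tumor-infiltrating lymphocytes (TILs) of mice with and without *Sirt2*. They were taken from the count table by gene name, as 7 of its 55450 genes, and every member was tested in every comparison. TILs came from subcutaneous tumors of B16F10, a mouse melanoma line. WT mice were C57BL/6J and *Sirt2*-/- mice carried the germline allele B6.129-*Sirt2*tm1.1Fwa/J, so that *Sirt2* was lost in all tissues and the tumor cells themselves kept the gene. Each of the 4 groups of genotype and cell type had 4 libraries, and the groups shared the tumor line, the site and the absence of any other treatment in the labels. The study's methods describe mice of both sexes and controls matched for sex and age, and the labels give neither the age nor the sex behind a library.

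Sirtuins remove acetyl and other acyl groups from lysines and consume NAD+ in doing so, which ties their activity to metabolism. SIRT1, SIRT6 and SIRT7 act mainly in the nucleus, SIRT2 mainly in the cytosol, and SIRT3, SIRT4 and SIRT5 in mitochondria. SIRT2 is known as a deacetylase of alpha-tubulin, and in T cells sirtuins bear on the balance between glycolysis and respiration.

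The libraries held 28000949 to 62407851 counts on genes. At least 1 count was found on 17730 to 22138 genes in 13 of the 16 libraries. The other 3, *Sirt2*-/- CD4+ replicate 4 (8169 genes), WT CD4+ replicate 1 and WT CD8+ replicate 1, each had fewer than 15000, and the main tests are given with and without them. The labelled cell types matched their markers: *Cd4* ranged from 383 to 622 CPM (counts on a scale where TMM brings all libraries to a common total) in CD4+ and from 0 to 4.93 CPM in CD8+ libraries. *Cd8a* and *Cd8b1* together ranged from 1379 to 2078 CPM in CD8+ libraries, from 13.6 to 24.9 CPM in WT CD4+ and from 22.6 to 74.8 CPM in *Sirt2*-/- CD4+ libraries, and the part of this difference between genotypes in the CD4+ results was not tested. The T cell list was above 0 in every library for 7 of 7 genes. Genes of the Y chromosome, 4 in the list, summed to between 6.40 and 298.0 CPM in the 8 WT libraries. In the 8 *Sirt2*-/- libraries they summed to at most 0.454 CPM, although the study's methods describe controls matched for sex. The wide spread among WT libraries leaves the sex behind each of them unknown. Y-linked signal went with genotype, so that sex and genotype cannot be told apart in any comparison of WT with *Sirt2*-/-.

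*Sirt2* (ENSMUSG00000015149.14) lies on the plus strand of GRCm38 at chr7:28766735-28788661 and overlaps, head to head, *Nfkbib*, the gene of an inhibitor of NF-kB. The bases in front of the annotated start of *Sirt2* that belong to no exon of either gene are shown because both genes begin around them, and because reads of one could be counted on the other. They are compared with the same part of the window of *Sirt1*, a sirtuin of similar level, whose window lies inside the span that its longer transcripts give the gene. Both were cut from promoter windows of RefSeq (GRCm38.p6), which cover 250 bases, and capitals mark the GC box GGGCGG and the E-box of letters CACGTG, each searched on both strands and counted with overlaps.
*Sirt2*, chr7:28766641-28766734, plus strand: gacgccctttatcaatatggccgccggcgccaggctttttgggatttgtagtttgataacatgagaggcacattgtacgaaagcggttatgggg
*Sirt1*, chr10:63339051-63339285, minus strand: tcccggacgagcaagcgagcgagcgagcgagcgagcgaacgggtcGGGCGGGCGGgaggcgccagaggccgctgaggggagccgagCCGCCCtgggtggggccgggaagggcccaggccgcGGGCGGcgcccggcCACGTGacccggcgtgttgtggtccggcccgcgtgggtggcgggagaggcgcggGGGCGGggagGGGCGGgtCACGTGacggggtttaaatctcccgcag
The 94 bases shown before *Sirt2* held none of the motifs searched, which also included the CCAAT box, the TATA box (TATAAA) and an ETS site spelled CCGGAAG. The whole window of *Sirt2*, exons included, held 2 CCAAT boxes and 1 GC box. The 235 bases of *Sirt1*, a longer stretch, held 6 GC boxes and 2 E-boxes. Of 32851 whole windows, 32.7% held a GC box and 6.02% this E-box, and GC content was 79.2% in the window of *Sirt1* against a median of 52.4%.

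*Sirt2* RNA was much lower in *Sirt2*-/- than in WT TILs of both cell types, and some reads remained in 7 of 8 *Sirt2*-/- libraries. In bulk libraries such as these, fewer cells of a type and less RNA per cell cannot be told apart. In WT CD4+ TILs *Sirt2* measured 73.5, 41.2, 41.5 and 45.9 CPM in replicates 1 to 4. In *Sirt2*-/- CD4+ TILs it measured 12.4, 10.3 and 10.7 CPM in replicates 1 to 3 and had no count in replicate 4, where 3 counts would be 0.0536 CPM. Every *Sirt2*-/- library lay below every WT library, and the highest WT value was that of replicate 1, 1 of the 3 libraries with few genes. In WT CD8+ TILs *Sirt2* measured 48.6, 35.8, 32.8 and 34.5 CPM, and in *Sirt2*-/- CD8+ TILs 9.18, 10.1, 6.63 and 7.21 CPM. The groups did not overlap here either.

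As a share of the WT mean, the *Sirt2* level left in *Sirt2*-/- CD4+ TILs was 16.5% ± 11.2 (SD, n = 4; exact permutation test of the CPM, two-sided, p = 0.0286). Without the 2 libraries with few genes it was 26.0% ± 2.60 (SD, n = 3), with 28.9%, 24.1% and 24.8% in replicates 1 to 3. The 0 of replicate 4 allows a level of up to 0.106% of the WT mean, by counting error only. That library held 8169 genes and no count of *Sirt3*, *Sirt4* or *Sirt6* either, so this limit cannot be read as the level in its cells. In CD8+ TILs 21.9% ± 4.33 (SD, n = 4) was left (exact permutation test, two-sided, p = 0.0286), and 24.1% ± 4.78 (SD, n = 4) when WT replicate 1 was left out of the WT mean. This p is the smallest that 4 libraries against 4 can give. A count per gene does not show which exons the remaining reads covered, and it says nothing of protein.

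Over all genes, *Sirt2* fell in *Sirt2*-/- CD8+ TILs by 2.22 on the log2 scale (SE 0.21, 95% CI -2.68 to -1.75, adjusted p = 0.0066 from edgeR's quasi-likelihood test). It was the 1 gene of 15302 to pass the threshold of 0.05 there, which makes 1 of 7 sirtuins against 0.00654% of all genes. The call was not past the threshold without *Sirt2*-/- CD8+ replicate 1 (adjusted p = 0.057) or replicate 4 (adjusted p = 0.062), nor with all 16 libraries in 1 edgeR model (adjusted p = 1.0), while its log2 fold change lay between -2.33 and -2.03 in all of these fits and the other leave-one-out fits. In CD4+ TILs the log2 fold change of *Sirt2* was -2.60 (SE 1.26, 95% CI -5.4 to 0.2, adjusted p = 1.0 from edgeR) with all libraries. There 0 of 7 sirtuins passed, as did 0.0% of 15070 genes, with 190 genes at an unadjusted p under 0.05, 7 genes past the threshold with DESeq2 and 4 with limma-voom.

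Without the libraries with few genes, *Sirt2* fell in both cell types. The log2 fold change was -1.95 in CD4+ TILs (SE 0.18, 95% CI -2.33 to -1.56, adjusted p = 0.00163 from edgeR) and -2.03 in CD8+ TILs (SE 0.17, 95% CI -2.39 to -1.67, adjusted p = 0.000394 from edgeR). Again 1 of 7 sirtuins passed in each cell type, against 0.0374% of genes in CD4+ and 0.0439% in CD8+ TILs. Limma-voom with quality weights, which keeps all libraries and gives less weight to the irregular ones, also called *Sirt2* in CD4+ TILs (log2 fold change -1.99, adjusted p = 0.00721 from limma).

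**Figure D1:**
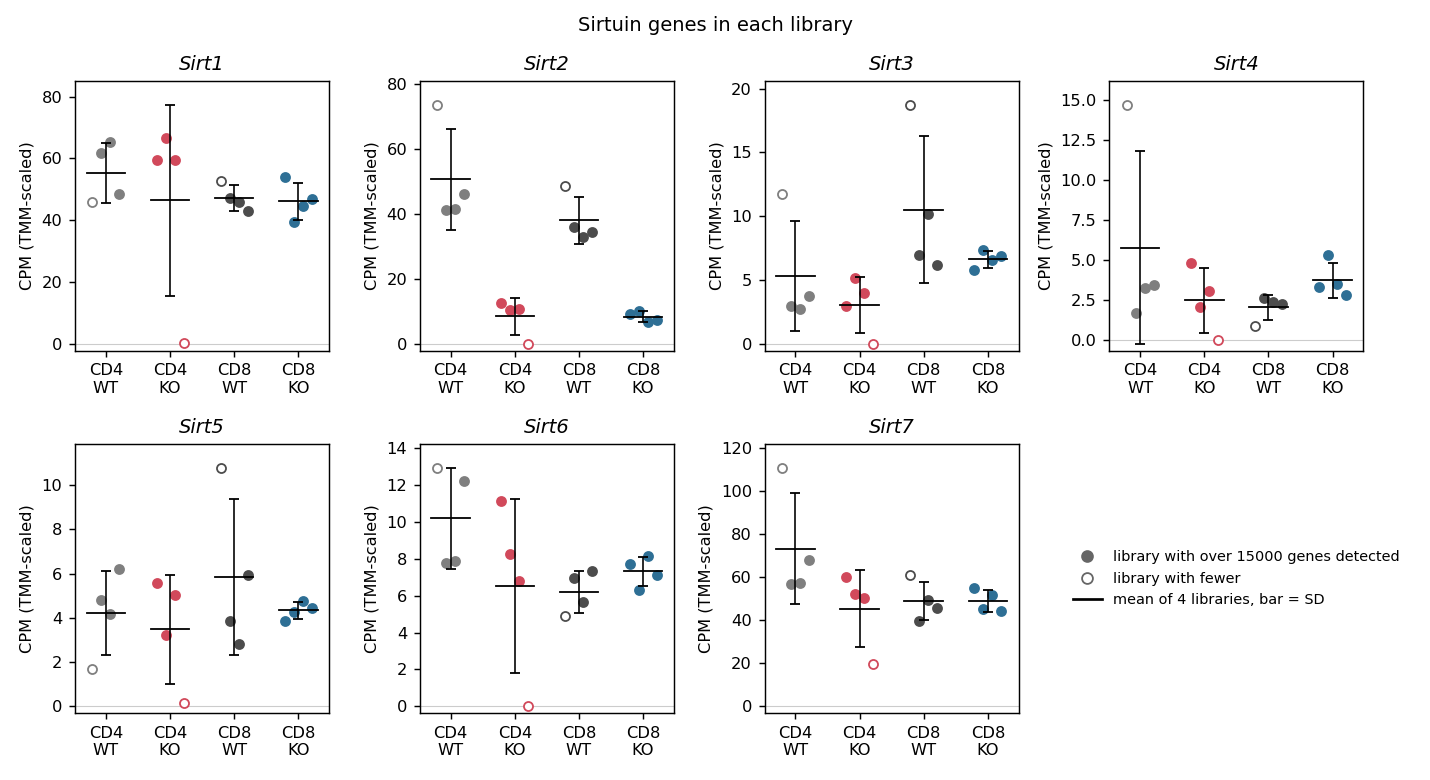
CPM of each sirtuin (vertical axes, 1 panel per gene) in the 4 libraries of each group, with the mean and SD; open circles are the 3 libraries with fewer than 15000 genes. *Sirt2* is between 0 and 12.4 CPM in the *Sirt2*-/- libraries and at least 32.8 CPM in the WT libraries, and most points far from the rest of their group are open circles.

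The nuclear sirtuins did not pass the threshold between genotypes in either cell type. *Sirt1*, whose product deacetylates p53 and FOXO proteins, measured 45.9, 61.9, 65.2 and 48.4 CPM in WT CD4+ and 59.4, 66.5, 59.5 and 0.179 CPM in *Sirt2*-/- CD4+ TILs. In CD8+ TILs it measured 52.7, 47.2, 45.8 and 42.8 CPM in WT and 54.0, 39.3, 44.6 and 46.7 CPM in *Sirt2*-/- libraries. The genotypes overlapped in both cell types, and the one *Sirt2*-/- CD4+ library near 0 was replicate 4. In CD8+ TILs, where the estimate was tightest, *Sirt1* was 0.965-fold its WT level, with a 95% CI from 0.791-fold to 1.18-fold (adjusted p = 0.989 from edgeR). In CD4+ TILs the interval ran from 0.16-fold to 4.39-fold with all libraries and from 0.843-fold to 1.32-fold without those with few genes.

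*Sirt7*, the gene of a nucleolar sirtuin tied to rRNA synthesis, measured 111.1, 56.7, 57.2 and 68.2 CPM in WT CD4+ TILs and 60.1, 52.1, 50.3 and 19.5 CPM in *Sirt2*-/- CD4+ TILs. The lowest value was again that of *Sirt2*-/- CD4+ replicate 4, in which *Sirt7* was the best measured sirtuin and *Sirt2*, *Sirt3*, *Sirt4* and *Sirt6* had no count. In CD8+ TILs it measured 60.9, 39.9, 49.3 and 45.7 CPM in WT and 55.1, 45.3, 51.6 and 44.3 CPM in *Sirt2*-/- libraries, 0.985-fold the WT level (95% CI 0.776 to 1.25-fold, adjusted p = 0.998 from edgeR). In CD4+ TILs its log2 fold change was -0.69 (SE 0.38, adjusted p = 1.0 from edgeR) with all libraries and -0.16 (SE 0.14, adjusted p = 0.99 from edgeR) without those with few genes. *Sirt6*, whose product acts in DNA repair and at telomeres, ranged from 7.76 to 12.9 CPM in WT CD4+, from 0 to 11.2 CPM in *Sirt2*-/- CD4+, from 4.88 to 7.35 CPM in WT CD8+ and from 6.32 to 8.15 CPM in *Sirt2*-/- CD8+ TILs. Its interval for *Sirt2*-/- against WT was 0.0682 to 6.02-fold in CD4+ and 0.831 to 1.66-fold in CD8+ TILs with all libraries, and 0.596 to 1.48-fold and 0.825 to 1.51-fold without those with few genes.

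The mitochondrial sirtuins were measured at a few CPM each and were less precise. *Sirt4*, whose product restrains glutamate dehydrogenase, measured 0.856, 2.59, 2.40 and 2.28 CPM in WT CD8+ TILs and 3.28, 5.33, 3.52 and 2.84 CPM in *Sirt2*-/- CD8+ TILs. All 4 *Sirt2*-/- libraries lay above all 4 WT libraries. Of all genes tested in CD8+ TILs, 2.88% had genotypes that did not overlap. *Sirt4* was the sirtuin other than *Sirt2* with the largest estimate there, 1.84-fold (95% CI 0.94 to 3.62-fold, adjusted p = 0.986 from edgeR), and 1.56-fold without WT replicate 1 (95% CI 0.963 to 2.54-fold). It was not called under any alternative run. In CD4+ TILs its groups overlapped, from 1.70 to 14.7 CPM in WT and from 0 to 4.82 CPM in *Sirt2*-/- libraries, and the sign of its difference depended on the libraries with few genes (log2 fold change -1.22 with them and 0.24 without).

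*Sirt3*, the gene of the main mitochondrial deacetylase, measured 18.7, 6.91, 10.2 and 6.14 CPM in WT and 5.74, 7.32, 6.55 and 6.85 CPM in *Sirt2*-/- CD8+ TILs. The highest value was that of WT replicate 1, without which the log2 fold change went from -0.71 (SE 0.36) to -0.22 (SE 0.23), neither past the threshold. In CD4+ TILs *Sirt3* measured 11.7, 2.95, 2.68 and 3.72 CPM in WT and 2.94, 5.11, 4.00 and 0 CPM in *Sirt2*-/- libraries, again with overlap. *Sirt5*, whose product removes succinyl, malonyl and glutaryl groups, ranged from 1.68 to 6.20 CPM in WT CD4+, from 0.125 to 5.56 CPM in *Sirt2*-/- CD4+, from 2.83 to 10.8 CPM in WT CD8+ and from 3.87 to 4.78 CPM in *Sirt2*-/- CD8+ TILs.

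Between genotypes, then, *Sirt2* was the sirtuin that passed the threshold, and 0 of the other 6 did in either cell type, with all libraries or without those with few genes, and 0 under the other settings run, DESeq2 and limma-voom included. In these 2 edgeR fits 0 of the other 6 had an unadjusted p under 0.05. In CD4+ TILs 1 of 7 sirtuins, *Sirt2*, had all libraries of one genotype above those of the other, against 3.15% of genes. In CD8+ TILs 2 of 7 did, *Sirt2* and *Sirt4*, against 2.88% of genes. Without the libraries with few genes, the upper ends of the 95% CI for *Sirt2*-/- against WT were 1.32-fold for *Sirt1*, 2.42-fold for *Sirt3*, 2.52-fold for *Sirt4*, 1.59-fold for *Sirt5*, 1.48-fold for *Sirt6* and 1.11-fold for *Sirt7* in CD4+ TILs. In CD8+ TILs they were 1.22, 1.22, 2.54, 1.62, 1.51 and 1.31-fold in the same order. Increases of these transcripts within the intervals could not be told from the spread of the libraries.

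**Figure D2:**
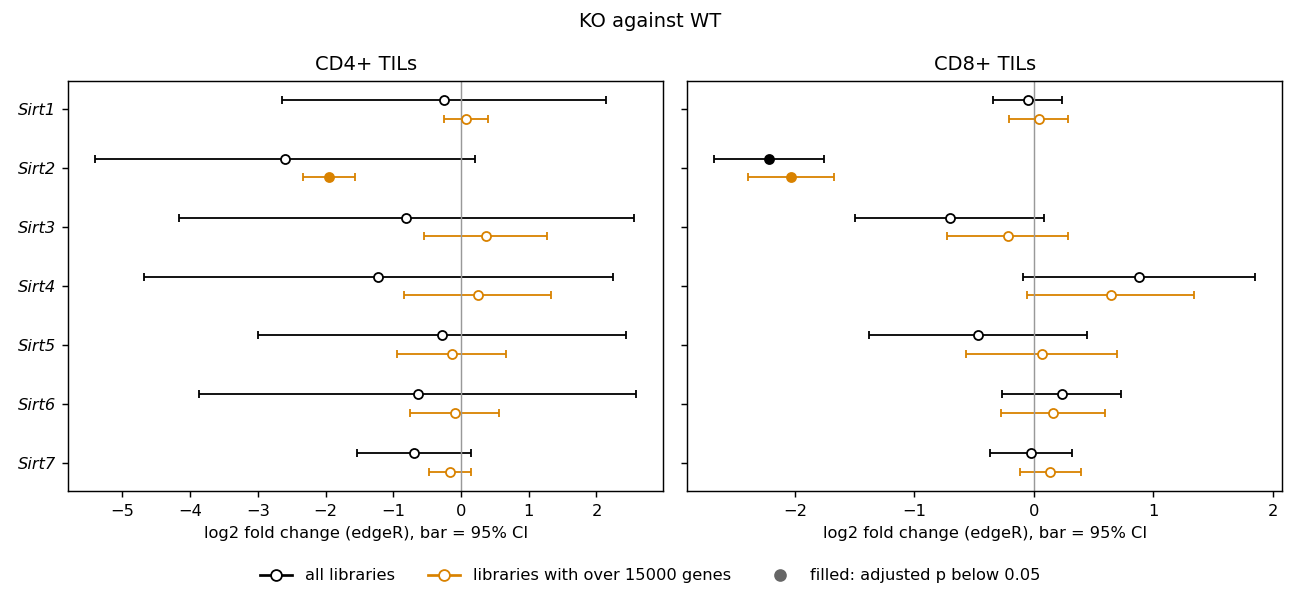
Log2 fold change of *Sirt2*-/- against WT (horizontal axes, with 95% CI) for each sirtuin in CD4+ and CD8+ TILs, with all libraries in black and without those under 15000 genes in orange; filled points passed the threshold. *Sirt2* lies between -2.60 and -1.95, and its interval includes 0 in CD4+ TILs with all libraries (-5.4 to 0.2). The intervals of the other 6 genes include 0, and the 2 panels have different scales.

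Summed over the 7 genes as CPM per kilobase of exon, a scale that allows genes of different length to be added, the sirtuin signal was lower in *Sirt2*-/- than in WT TILs. In the libraries with more than 15000 genes it was 37.1 ± 1.68 (SD, n = 3) in WT and 30.3 ± 2.25 (SD, n = 3) in *Sirt2*-/- CD4+ TILs, and 29.4 ± 0.406 (SD, n = 3) in WT and 25.8 ± 1.83 (SD, n = 4) in *Sirt2*-/- CD8+ TILs. The sum of the other 6 was 28.6 ± 1.20 (SD, n = 3) against 28.1 ± 2.05 (SD, n = 3) in CD4+ TILs. In CD8+ TILs it was 22.6 ± 0.701 (SD, n = 3) in WT against 24.2 ± 1.82 (SD, n = 4) in *Sirt2*-/-. With all libraries the sum of the other 6 was 32.3 ± 7.36 (SD, n = 4) in WT and 22.0 ± 12.2 (SD, n = 4) in *Sirt2*-/- CD4+ TILs, and 24.1 ± 3.12 (SD, n = 4) in WT CD8+ TILs. These sums are a description and were not tested. *Sirt2* made up 22.9% ± 0.564 (SD, n = 3) of the signal in WT CD4+ and 7.30% ± 0.362 (SD, n = 3) in *Sirt2*-/- CD4+ TILs, and 23.2% ± 1.32 (SD, n = 3) in WT CD8+ and 6.39% ± 1.32 (SD, n = 4) in *Sirt2*-/- CD8+ TILs. Over all libraries the sum ranged from 35.6 to 57.8 in WT CD4+ and from 3.84 to 32.7 in *Sirt2*-/- CD4+ TILs, the extremes being WT replicate 1 and *Sirt2*-/- replicate 4.

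**Figure D3:**
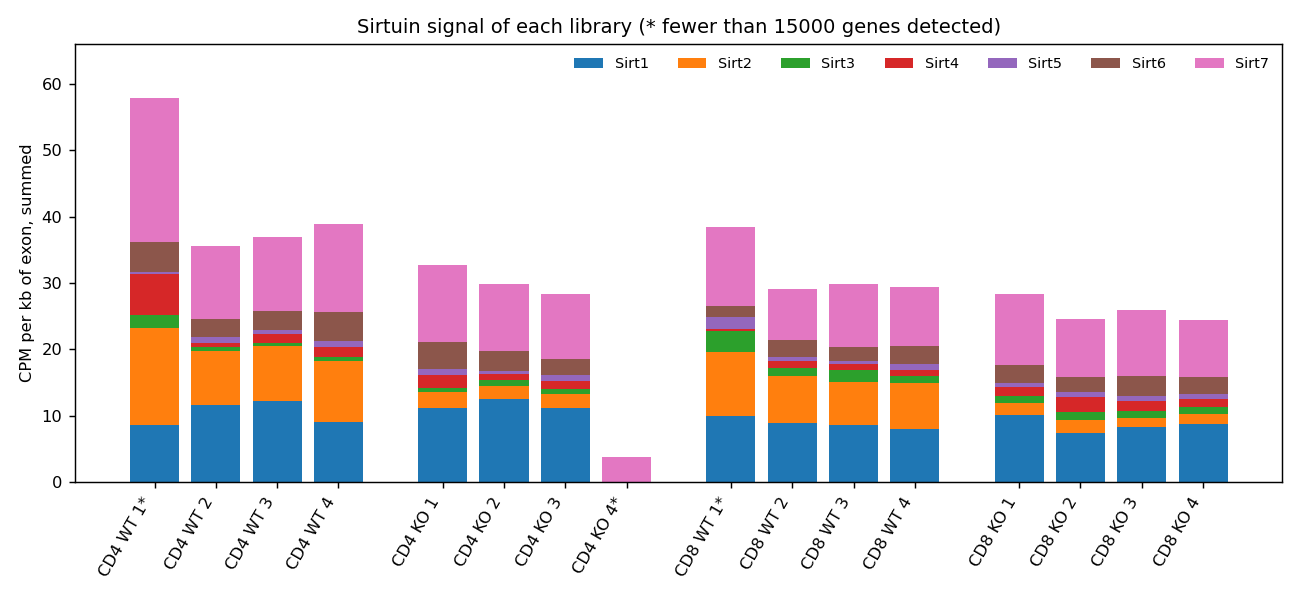
CPM per kilobase of exon summed over the sirtuins (bar height, 1 bar per library), with the part of each gene in color; asterisks mark the 3 libraries with fewer than 15000 genes. The *Sirt2* part (orange) is smaller in *Sirt2*-/- libraries, and *Sirt2*-/- CD4+ replicate 4 stands at 3.84, nearly all of it *Sirt7*.

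The genotype effect was compared between the cell types over all 16 libraries. For *Sirt2* the log2 fold change in CD8+ minus that in CD4+ TILs was 0.41 (SE 1.24, adjusted p = 1.0 from edgeR), and -0.09 without the libraries with few genes (SE 0.23, 95% CI -0.58 to 0.40). Without those libraries the ratio of *Sirt2*-/- to WT in CD8+ TILs was thus 0.941-fold that in CD4+ TILs (95% CI 0.67 to 1.32-fold). The difference was not past the threshold for any sirtuin in any setting run, as for 0.0% of 17270 genes with all libraries (342 genes at an unadjusted p under 0.05, 2 past the threshold with DESeq2 and 0 with limma-voom). Without the libraries with few genes it was passed by 0.0% of 17993 genes.

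Between CD8+ and CD4+ TILs of the same genotype, 2 sirtuins passed the threshold in WT and 1 in *Sirt2*-/- mice once the libraries with few genes were left out, shares near or below those of all genes. In WT TILs *Sirt3* was higher in CD8+ than in CD4+ TILs, 2.49-fold (95% CI 1.52 to 4.08-fold, adjusted p = 0.0117 from edgeR). Its 3 CD8+ values, from 6.14 to 10.2 CPM, lay above its 3 CD4+ values, from 2.68 to 3.72 CPM. *Sirt7* was lower in CD8+ TILs, 0.739-fold (95% CI 0.595 to 0.918-fold, adjusted p = 0.0411 from edgeR), with 39.9 to 49.3 CPM against 56.7 to 68.2 CPM. These 2 of 7 sirtuins stand beside 28.0% of all genes called. Groups were separate for 5 of 7 sirtuins (*Sirt3* higher, *Sirt1*, *Sirt2*, *Sirt6* and *Sirt7* lower in CD8+ TILs), against 43.7% of genes.

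With all libraries 0 of 7 sirtuins passed in WT TILs in the main edgeR fit, against 11.9% of genes. *Sirt7* was the 1 sirtuin with an unadjusted p under 0.05 in that fit. DESeq2 called 0 sirtuins, where 2651 of 14892 genes passed. Limma-voom called 4 (*Sirt1*, *Sirt2*, *Sirt3* and *Sirt7*), where 5481 of 14892 genes passed. With a replicate block edgeR called 1, *Sirt7*, where 1619 of 14892 genes passed. In the main fit the log2 fold change of *Sirt3* was 0.97 (SE 0.60, adjusted p = 0.37 from edgeR) and that of *Sirt7* -0.63 (SE 0.24, adjusted p = 0.13 from edgeR). Of the 7 genes *Sirt6* alone then had separate groups, lower in CD8+ TILs, where 22.1% of genes were separate. The melanoma list, which marks tumor cells, summed to 95.7 CPM in WT CD4+ replicate 1 and to between 5.52 and 13.5 CPM in the other WT CD4+ libraries. It summed to 81.3 CPM in *Sirt2*-/- CD4+ replicate 4. In CD8+ TILs it summed to 3.915 to 10.8 CPM in WT libraries, with at most 5.50 CPM without replicate 1. In *Sirt2*-/- CD8+ libraries it summed to 7.075 to 15.7 CPM. Genes of stroma and endothelium summed to 95.2 to 118.2 CPM in WT CD4+ and to 34.2 to 49.4 CPM in WT CD8+ TILs, and to 64.4 to 182.7 CPM and 41.2 to 108.3 CPM in *Sirt2*-/- CD4+ and CD8+ TILs. The part of these cells in the sirtuin values was not tested.

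Without CD4+ replicate 4, *Sirt1* of *Sirt2*-/- TILs was lower in CD8+ than in CD4+ TILs, 0.736-fold (95% CI 0.614 to 0.882-fold, adjusted p = 0.0185 from edgeR). Its values were 39.3 to 54.0 CPM in CD8+ against 59.4 to 66.5 CPM in CD4+ TILs. This 1 of 7 sirtuins compares with 25.4% of genes. *Sirt3* had the same sign as in WT, 1.62-fold (95% CI 1.06 to 2.49-fold, adjusted p = 0.096 from edgeR), and its groups were separate, as were those of *Sirt1* and *Sirt2*, 3 of 7 in all against 35.1% of genes. The residual *Sirt2* level was 6.63 to 10.1 CPM in CD8+ and 10.3 to 12.4 CPM in CD4+ TILs and did not pass the threshold (0.736-fold, 95% CI 0.529 to 1.02-fold, adjusted p = 0.17 from edgeR; 0.987-fold with all libraries). With all 8 libraries 0 of 7 passed with edgeR, against 2.24% of genes, with 0 at an unadjusted p under 0.05. DESeq2 and limma-voom also called 0 of 7, where 1339 and 4474 of 15787 genes passed. *Sirt3* alone was separate, where 21.8% of genes were.

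**Figure D4:**
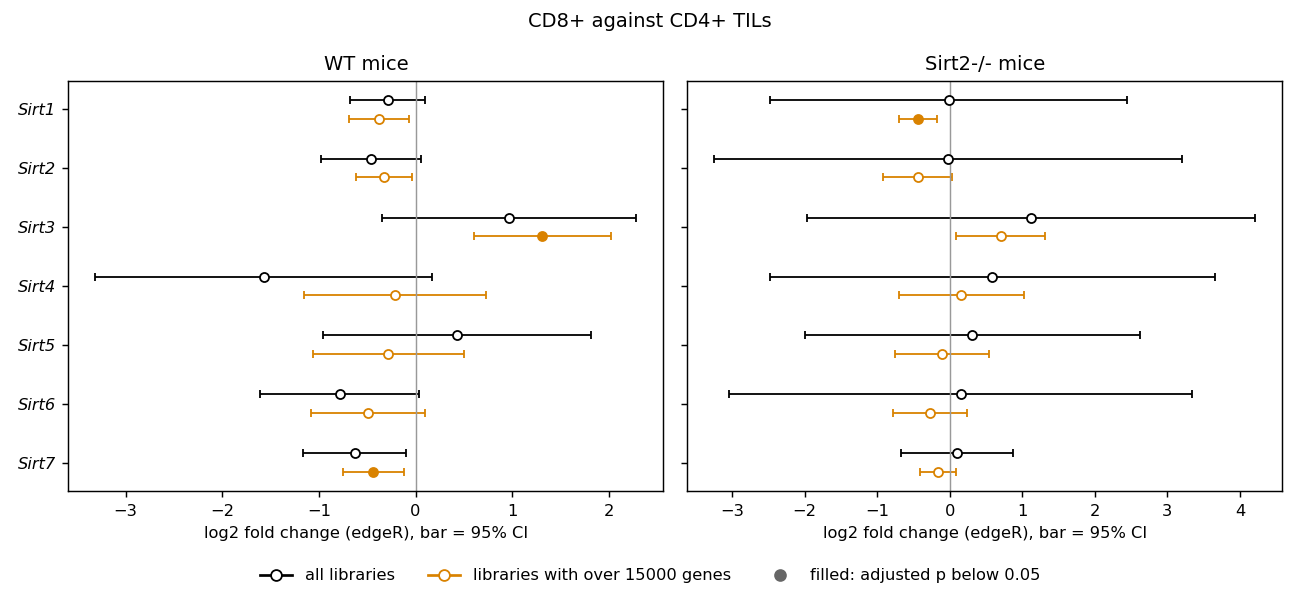
Log2 fold change of CD8+ against CD4+ TILs (horizontal axes, with 95% CI) for each sirtuin in WT and *Sirt2*-/- mice, with all libraries in black and without those under 15000 genes in orange; filled points passed the threshold. *Sirt3* lies to the right in both panels, and filled points are *Sirt3* and *Sirt7* in WT and *Sirt1* in *Sirt2*-/-; the 2 panels have different scales.

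Levels of different sirtuins were set side by side as CPM per kilobase of exon. In WT CD4+ TILs the order was *Sirt7* (14.2 ± 5.002), *Sirt1* (10.4 ± 1.80), *Sirt2* (10.03 ± 3.07), *Sirt6* (3.66 ± 0.989), *Sirt4* (2.41 ± 2.51), *Sirt3* (0.881 ± 0.723) and *Sirt5* (0.691 ± 0.310; SD, n = 4 for each). With all libraries only *Sirt2* and *Sirt6* of these neighbors had ranges that did not overlap. In WT CD8+ TILs the first 4 were the same, at 9.51 ± 1.72, 8.85 ± 0.779, 7.53 ± 1.43 and 2.23 ± 0.412 (SD, n = 4), followed by *Sirt3* at 1.76 ± 0.964 (SD, n = 4), *Sirt5* and *Sirt4*. Again the step from *Sirt2* to *Sirt6* was the one between separate ranges with all libraries. Without replicate 1 *Sirt2* lay apart from *Sirt7* in WT CD4+ TILs, with at most 9.12 against at least 11.02 CPM per kilobase, and overlapped *Sirt1*. In WT CD8+ TILs without replicate 1 *Sirt2*, at most 7.11, lay below both *Sirt1* (at least 8.03) and *Sirt7* (at least 7.75), *Sirt6* lay above *Sirt3* without overlap, and *Sirt4* stood before *Sirt5*.

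Among *Sirt2*-/- CD8+ TILs *Sirt2* stood at place 4, 1.65 ± 0.327 (SD, n = 4), below *Sirt6* at 2.63 ± 0.285 (SD, n = 4) with no overlap and beside *Sirt4* at 1.56 ± 0.457 (SD, n = 4) with overlap. It also stood at place 4 in *Sirt2*-/- CD4+ TILs, 1.66 ± 1.12 (SD, n = 4), and overlapped *Sirt6*. The order depends on the length used, since *Sirt2* has 5035 bases of merged exons and 2117 bases in its longest transcript. Per kilobase of the longest transcript *Sirt2* came first in WT TILs, at 23.9 in CD4+ and 17.9 in CD8+ TILs against 22.4 and 14.96 for *Sirt7*, and at place 3 in *Sirt2*-/- TILs.

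**Figure D5:**
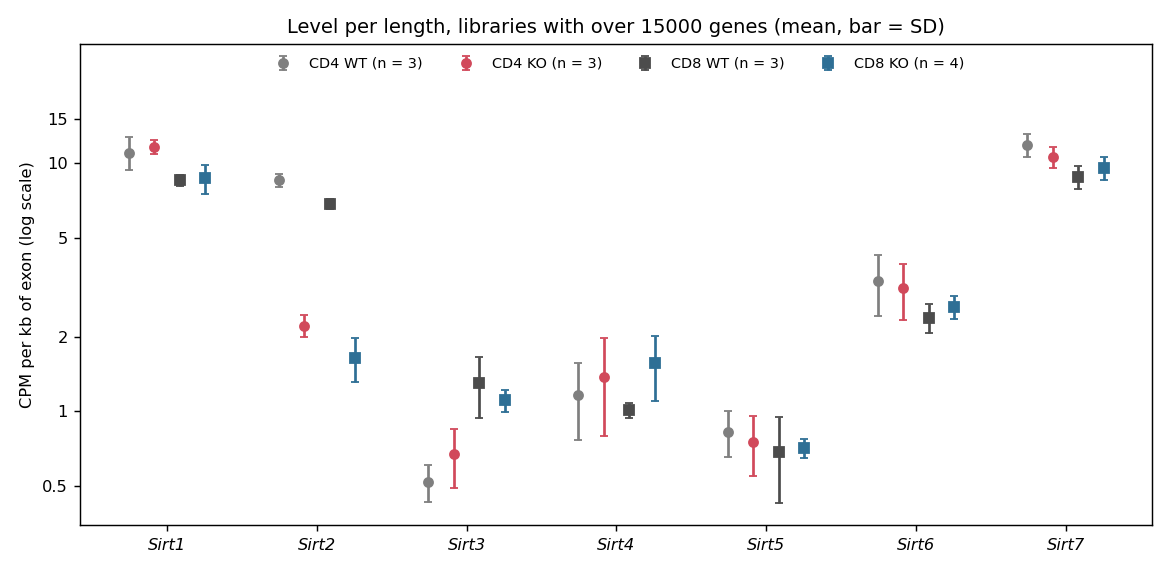
Mean CPM per kilobase of exon (vertical log axis, bars are SD) of each sirtuin in the libraries with more than 15000 genes, with groups by color and shape. *Sirt1*, *Sirt7* and, in WT, *Sirt2* stand between 6.83 and 11.8. In *Sirt2*-/- TILs *Sirt2* is near *Sirt4* in CD8+ (1.65 and 1.56) and above it without overlap in CD4+ TILs (2.21 and 1.38). The mean of *Sirt3* is higher in CD8+ than in CD4+ TILs, at 1.30 against 0.522 in WT and 1.11 against 0.672 in *Sirt2*-/-. This difference passed the threshold in WT only.

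Reads of overlapping genes could reach some sirtuins, because the settings of the counting, strand included, are not given in the sources used here. *Sirt3* at chr7:140863666-140882309 shares 418 exon bases with *Ric8a* and 342 with *Psmd13*, both on the other strand and with medians of 3154 and 2653 counts per library. The log2 fold changes of these genes for CD8+ against CD4+ TILs in WT were -0.25 (SE 0.21) and 0.38 (SE 0.19). *Sirt2* shares 42 exon bases with *Nfkbib*, whose log2 fold change for *Sirt2*-/- against WT was -0.01 (SE 0.36) in CD4+ and 0.26 (SE 0.19) in CD8+ TILs. *Sirt7* shares 124 exon bases with *Mafg* on the same strand. Whether such reads entered the values was not tested.

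Genes around the sirtuins were followed in 6 lists of 59 genes, namely NAD+ synthesis, other NAD+ users, direct regulators of SIRT1, the zinc-dependent deacetylases *Hdac1* to *Hdac11*, and reported substrates of the nuclear or cytosolic and of the mitochondrial sirtuins. Between genotypes 0 of the 55 list genes tested in CD4+ TILs and 0 of the 54 tested in CD8+ TILs passed the threshold, and 0 of 55 in each without the libraries with few genes. With all libraries the median log2 fold changes of the lists ran from -0.40 to 0.15 in CD4+ and from -0.19 to 0.18 in CD8+ TILs, against -0.11 and 0.01 over all genes. Without those with few genes they ran from -0.27 to 0.001 in CD4+ and from -0.10 to 0.07 in CD8+ TILs, against -0.002 and 0.009 over all genes. No gene of NAD+ synthesis, no PARP and no HDAC was among the called genes.

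Between cell types some of the list genes differed. In WT TILs with all libraries 7 of 54 were higher and 1 lower in CD8+ than in CD4+ TILs, while of 14888 gene names 728 were higher and 1037 lower (11.9% of all genes tested called). Among HDACs *Hdac2*, a class I deacetylase, was higher (log2 fold change 0.70, SE 0.18, adjusted p = 0.0273 from edgeR) and *Hdac5*, a class IIa deacetylase, lower (-1.29, SE 0.25, adjusted p = 0.00612). Among reported nuclear or cytosolic substrates 4 of 13 were higher, with *Tuba1c* (1.28, SE 0.29) and *Tuba1b* (1.18, SE 0.27), both alpha-tubulin genes, the most. Among reported mitochondrial substrates 2 of 10 were higher, *Ppif* (1.04, SE 0.27), the gene of cyclophilin D, and *Ndufa9* (0.74, SE 0.17), that of a complex I subunit. Of the list genes in *Sirt2*-/- TILs 1 passed, *Eno1*, the gene of a glycolytic enzyme (0.68, SE 0.11, adjusted p = 0.0189 from edgeR).

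Without the libraries with few genes 14 of 54 list genes were higher and 8 lower in CD8+ TILs of WT, and 13 of 56 higher and 6 lower in *Sirt2*-/- TILs. Of all genes tested, 28.0% and 25.4% were called in the same fits. The larger part, higher in CD8+ TILs, included *Tuba1b* (log2 fold change 1.39, SE 0.21, in WT and 1.34, SE 0.13, in *Sirt2*-/-). It also included *Ppif* (0.95, SE 0.21, and 0.89, SE 0.23) and *Hdac2* (0.74, SE 0.13, and 0.65, SE 0.12). The genes that follow are from the smaller part, those lower in CD8+ TILs. In both genotypes *Qprt*, which feeds NAD+ synthesis from tryptophan, was then lower (log2 fold change -1.60, SE 0.31, in WT and -1.25, SE 0.36, in *Sirt2*-/-), and so was *Tnks2*, a tankyrase (-0.38, SE 0.09, and -0.41, SE 0.09). The transcription factor genes *Foxo3* and *Foxo1*, whose products SIRT1 and SIRT2 deacetylate, were lower as well, at -0.66 (SE 0.10) and -0.54 (SE 0.11) in WT and -0.73 (SE 0.15) and -0.73 (SE 0.13) in *Sirt2*-/- TILs. Among HDACs *Hdac9* was lower in WT (-3.32, SE 0.94, adjusted p = 0.0228 from edgeR). *Ccar2*, the gene of a SIRT1 inhibitor, was lower in WT (-0.54, SE 0.14, adjusted p = 0.0175 from edgeR).

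The genes most like *Sirt2* in their pattern over the 16 libraries were *Mfn1*, the gene of a mitofusin (Spearman's rho of log2 CPM 0.92, Pearson's r 0.92), *Asb6* (0.87 and 0.92) and the long noncoding RNA *Mirt1* (0.86 and 0.96). The single most similar gene was *Efnb1* for *Sirt1* (rho 0.92), *Mnd1* for *Sirt3* (0.94), *Hectd3* for *Sirt4* (0.86), *Arhgef39* for *Sirt5* (0.85), *Btbd2* for *Sirt6* (0.94) and *Zfp626* for *Sirt7* (0.97). All 16 points share their libraries and the few counts of *Sirt2*-/- CD4+ replicate 4. Over the 13 libraries with more genes, 1 of these 9 genes was still among those the same rule would name, *Mfn1*, which went to rank 3 for *Sirt2*.

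Among the sirtuins themselves, Spearman's rho over the 13 libraries was highest between *Sirt6* and *Sirt7* (0.79; Pearson's r 0.77) and between *Sirt1* and *Sirt7* (0.59; r 0.50). It was lowest between *Sirt3* and *Sirt7* (-0.84; r -0.70), *Sirt3* and *Sirt1* (-0.76; r -0.75) and *Sirt3* and *Sirt6* (-0.71; r -0.65). *Sirt3* thus tended to be high in the libraries where the nuclear sirtuins were low. These 13 libraries hold both cell types, between which the levels differed. Over all 16 libraries Spearman's rho ran from -0.36 to 0.67 over the 21 pairs, while Pearson's r was positive for each, from 0.58 to 0.98, with *Sirt2*-/- CD4+ replicate 4 far below the rest for every gene.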

How the data were processed

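RNA of CD4+ and CD8+ TILs was sequenced from a stranded total RNA kit (SMARTer Stranded Total RNA-seq Pico v2). The authors deposited raw read counts per gene for 16 libraries. The submitters' processing notes name STAR, HTSeq and mm10, and the settings, including strand, are not given in the sources used here. Gene coordinates are those of GRCm38.

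Counts were fitted as deposited with edgeR 4.0.16 in R 4.3.3 (TMM, filterByExpr, robust quasi-likelihood test), separately for each comparison of 2 groups of 4 and over all 16 libraries for the difference of genotype effects. P-values were adjusted over all genes tested by Benjamini-Hochberg, with a threshold of 0.05. The labels do not tie libraries to separate animals, so the p-values measure the spread between these libraries. The main fits treated CD4+ and CD8+ libraries as unpaired, and whether they were paired by mouse is not known. DESeq2 1.42.0, limma 3.58.1 (voom with quality weights), other scalings, other filters, 1 model of all libraries, a replicate block and leaving out libraries were the alternatives. Python 3.11.15 and scipy 1.17.1 gave the exact permutation tests. The fits were also run on simulated counts, in which no library was made to lose genes. That run therefore does not bear on the libraries with few genes. Intervals and floors (3 counts) of single libraries cover counting error only.

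CPM are counts relative to the library total after TMM scaling, and lengths are merged exons. The named genes were the 7 sirtuins, list genes past the threshold (between cell types at most 2 per list and direction), and the genes most like each sirtuin by Spearman's rho of log2 CPM (prior count 2). *Eno1* was named because it alone passed in *Sirt2*-/- TILs. The members and lists were chosen with earlier results of these data known.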

Additional observations from a re-analysis of the deposited data

Results flagged for a closer look

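Single libraries stood apart from the other 3 of their group (Dixon's ratio above its 95% critical value) in 5 of 28 groups of a sirtuin, where chance gives about 1.4. All 5 came from CD4+ libraries with fewer than 15000 genes. *Sirt2*-/- CD4+ replicate 4 had 0.179 CPM of *Sirt1* against 59.4 to 66.5 CPM in the other 3 libraries, and 0.0 CPM of *Sirt2* against 10.3 to 12.4 CPM. WT CD4+ replicate 1 had 73.5 CPM of *Sirt2* against 41.2 to 45.9 CPM, 11.7 CPM of *Sirt3* against 2.68 to 3.72 CPM, and 14.7 CPM of *Sirt4* against 1.70 to 3.44 CPM. The cause was not tested.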

How the results depend on the processing

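Of the alternative values of a sirtuin's log2 fold change, 552 kept direction and call, 62 changed sign, 12 passed the threshold newly and 3 no longer passed it. The cause was not tested. The filter of at least 10 counts in every library kept 2 sirtuins in fits that hold *Sirt2*-/- CD4+ replicate 4, so the others have no value there.

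Genes called in CD4+ TILs between genotypes were 7 with DESeq2, 4 with limma-voom and 6 in the 13 libraries with more genes, and sirtuins called were 1 by each of the last 2. In CD8+ TILs 28 genes were called with DESeq2, 4 with limma-voom, 5 with no filter, 7 without the libraries with few genes and 0 to 7 leaving out 1 library, and sirtuins called were 0 in the model of all 16 libraries and 0 to 1 leaving out 1. Between cell types in WT 2651 genes were called with DESeq2, 5481 with limma-voom, 811 in the model of all libraries, 4394 without the libraries with few genes and 1022 to 2767 leaving out 1, and 4 sirtuins with limma-voom, 2 without the libraries with few genes and 0 to 1 leaving out 1. Between cell types in *Sirt2*-/- TILs 1339 genes were called with DESeq2, 4474 with limma-voom, 907 with the filter of 10 counts, 781 in the model of all libraries, 4250 without the libraries with few genes and 111 to 4250 leaving out 1, and 1 sirtuin without the libraries with few genes and 0 to 1 leaving out 1. DESeq2 called 2 genes for the difference of genotype effects. With longest transcripts as lengths, 2, 3, 4 and 5 of 7 sirtuins kept their place in WT CD4+, *Sirt2*-/- CD4+, WT CD8+ and *Sirt2*-/- CD8+ TILs. Of the 9 genes named for likeness, 1 would still be named without the libraries with few genes and 8 with a prior count of 0.5.

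Signs changed for values that did not pass the threshold. For *Sirt2*-/- against WT in CD4+ TILs limma-voom gave log2 fold changes of 0.0315 for *Sirt1* and 0.53 for *Sirt3*, and leaving out the libraries with few genes gave 0.0785 for *Sirt1*, 0.37 for *Sirt3* and 0.24 for *Sirt4*. In CD8+ TILs limma-voom gave 0.0518 for *Sirt1*, 0.0178 for *Sirt5* and 0.18 for *Sirt7*, and leaving out those libraries 0.0418, 0.0667 and 0.138. Between cell types in WT *Sirt5* was at -0.15 with limma-voom and -0.28 without those libraries. The model of all libraries, in *Sirt2*-/- TILs, gave 0.0044 for *Sirt1* and 0.0059 for *Sirt2*, limma-voom -0.14 for *Sirt6* and -0.11 for *Sirt7*, and leaving out those libraries -0.11 for *Sirt5*, -0.27 for *Sirt6* and -0.16 for *Sirt7*. For the difference of genotype effects limma-voom gave -0.11 for *Sirt2*, -0.65 for *Sirt3* and 0.15 for *Sirt5*, and leaving out those libraries -0.0371 for *Sirt1*, -0.0879 for *Sirt2*, -0.58 for *Sirt3* and 0.20 for *Sirt5*.

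Leaving out 1 library at a time gave log2 fold changes in CD4+ TILs between -0.48 and 0.161 for *Sirt1* and between -0.595 and 0.127 for *Sirt5*. In CD8+ TILs they lay between -0.12 and 0.0418 for *Sirt1*, -0.682 and 0.0667 for *Sirt5*, and -0.11 and 0.138 for *Sirt7*. Between cell types in WT *Sirt5* lay between -0.0386 and 0.715. In *Sirt2*-/- TILs the ranges were -0.443 to 0.209 for *Sirt1*, -0.443 to 0.227 for *Sirt2*, -0.106 to 0.617 for *Sirt5*, -0.273 to 0.527 for *Sirt6* and -0.164 to 0.251 for *Sirt7*. For the difference they were -0.197 to 0.443 for *Sirt1*, -0.0186 to 0.659 for *Sirt2*, -0.62 to 0.614 for *Sirt3* and -0.562 to 0.346 for *Sirt5*.

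The labels do not say whether equal replicate numbers pair libraries, and the main fits did not pair them. Deviations from the group means correlated at 0.116, 0.107, 0.116 and 0.067 between WT CD4+ and CD8+ libraries of the same number. Between *Sirt2*-/- ones they correlated at 0.133, 0.0287, -0.0141 and -0.00885. The Y-linked sums of WT replicates 1 and 2 were 57.4 and 298.0 CPM in CD4+ and 54.6 and 276.4 CPM in CD8+ TILs. With a replicate block 4 genes were called in CD8+ TILs between genotypes, 1 sirtuin between cell types in WT (*Sirt7*, log2 fold change -0.60, adjusted p = 0.0467 from edgeR) and 108 genes in *Sirt2*-/- TILs. The block gave 0.55 for *Sirt1* and 0.615 for *Sirt2* between cell types in *Sirt2*-/- TILs and 0.50 for *Sirt5* in the difference of genotype effects.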

Other observations

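In *Sirt2*-/- CD4+ replicate 4, *Sirt7* made up 98.6% of the sirtuin signal per kilobase of exon, against 33.9% to 35.7% in the other 3 libraries of its group. In the libraries with more than 15000 genes, *Sirt1* made up 29.7% ± 5.52 (SD, n = 3) of the signal in WT CD4+ and 38.5% ± 3.96 (SD, n = 3) in *Sirt2*-/- CD4+ TILs. In CD8+ TILs its share was 28.9% ± 1.56 (SD, n = 3) in WT and 33.4% ± 2.87 (SD, n = 4) in *Sirt2*-/- libraries. A share of a sum is larger when *Sirt2* is smaller, and the *Sirt1* levels themselves did not pass the threshold between genotypes.

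The Y-linked genes summed to 57.4, 298.0, 10.2 and 10.2 CPM in WT CD4+ replicates 1 to 4 and to 54.6, 276.4, 15.1 and 6.40 CPM in WT CD8+ replicates 1 to 4. The order of the numbers was thus alike in both cell types for the first 2 replicates, and the labels do not say whether equal numbers mark the same mouse.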
